A study of Mus musculus with 6 samples.

Results

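The genes described are those for the proteins of the cytosolic ribosome: rows of the deposited count table whose symbol is Rpl or Rps followed by a number and at most the letter a or x, together with Rplp0, Rplp1, Rplp2 and Rpsa. Names with a hyphen, which mark pseudogenes, were left out. The rule found 76 genes among 50763 in the table, 46 of the large (60S) and 30 of the small (40S) subunit. All 76 were tested, among 16730 genes that passed the filter on low counts. RNA sequencing was carried out on 6 libraries of mouse embryonic fibroblasts, connective tissue cells cultured from dissociated E13.5 embryos and labelled C57BL/6J. In 3 libraries (K68R) the cells carried a CRISPR knock-in that replaces lysine 68 of SOD2, the mitochondrial superoxide dismutase, with arginine, and 3 libraries were wild type (WT). Cells of both genotypes were cultured briefly, with no treatment named in the labels, and the number of embryos, litters or independent knock-in lines is not given there. Since the libraries of a genotype may share an embryo or a culture, p-values rest on a spread that may be technical.

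The ribosome is built from ribosomal RNA and one copy of most of its proteins per particle, the acidic stalk proteins being the known exception. In growing cells the transcripts of these proteins are among the most abundant short messenger RNAs. Most begin with a cytosine followed by a run of pyrimidines (a 5′ terminal oligopyrimidine or TOP start), through which mTORC1 and the RNA-binding protein LARP1 adjust their translation and stability. In fibroblasts their supply is known to follow growth rate and nutrient state.

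Library totals ran from 26200088 to 40691447 counts of read pairs. Levels below are CPM, counts per library size with sizes scaled by TMM, and a log2 fold change is K68R minus WT. Sod2 itself stood at 48.9, 45.6 and 47.2 CPM in K68R and 71.8, 69.0 and 69.2 CPM in WT, and counts over its exons do not tell the edited codon from the normal one. Fibroblast markers were present in both genotypes, with a summed level of 11050 to 11167 CPM in K68R and 8125 to 8272 CPM in WT over 10 genes. Of these, 5 were lower and 4 higher in K68R. Markers of other cell types also differed. The 6 adipocyte markers summed to 10.8 to 11.1 CPM in K68R against 100.6 to 106.8 CPM in WT, with Plin1 and Lep at 0 counts in every K68R library, and 5 of the 6 were lower. The 6 skeletal muscle markers summed to 91.8 to 98.6 against 16.5 to 17.1 CPM, with 5 higher, and the 6 neural markers to 408 to 415 against 48.4 to 50.9 CPM, with 4 higher and 1 lower. Macrophage markers summed to 152 to 158 against 168 to 169 CPM over 10 genes, endothelial ones to 96.2 to 97.9 against 24.98 to 27.36 CPM over 6, and epithelial ones to 18.4 to 20.5 against 46.0 to 47.6 CPM over 6. Erythroid markers were near 0, at most 1.22 CPM summed over 8. The part of these cell types in the results was not tested.

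Ribosomal protein transcripts were lower in K68R cells across nearly the whole family. They took 4.07, 4.03 and 3.93% of all counts in the K68R libraries (mean 4.01% ± 0.0675, SD, n = 3) and 7.45, 7.40 and 7.26% in the WT libraries (7.37% ± 0.0982, n = 3). Every WT library was above every K68R library, and the WT share was 1.84 times the K68R share. By edgeR's quasi-likelihood test, with Benjamini-Hochberg adjustment over all genes tested and calls at an adjusted p under 0.05, 74 of the 76 genes were lower in K68R, 1 (Rpl28) was higher and 1 (Rpl29) was not called. Over all genes tested 40.5% were called lower and 40.8% higher, and why so many were called was not tested. In bulk RNA, fewer cells of a type and less RNA per cell cannot be told apart.

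The sizes of the falls lay close together. The median log2 fold change of the 76 genes was -0.87 (1.83-fold lower), with quartiles of -0.95 and -0.79, against -0.01 over all genes tested. In K68R, 70 of the 76 genes kept between 45 and 65% of their WT level. At least 2-fold lower were 7 genes, where 7.57% of all genes tested were both called lower and at least 2-fold lower. The 3 K68R values did not overlap the 3 WT values in 75 of the 76 genes, while 82.3% of all genes tested did not overlap. Across members, log2 mean CPM in K68R followed that in WT with a Pearson r of 0.99 over 76 genes, which share the same 6 libraries. The rank order of abundance within the family was therefore largely held (Spearman rho 0.99, n = 76).

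**Figure D1:**
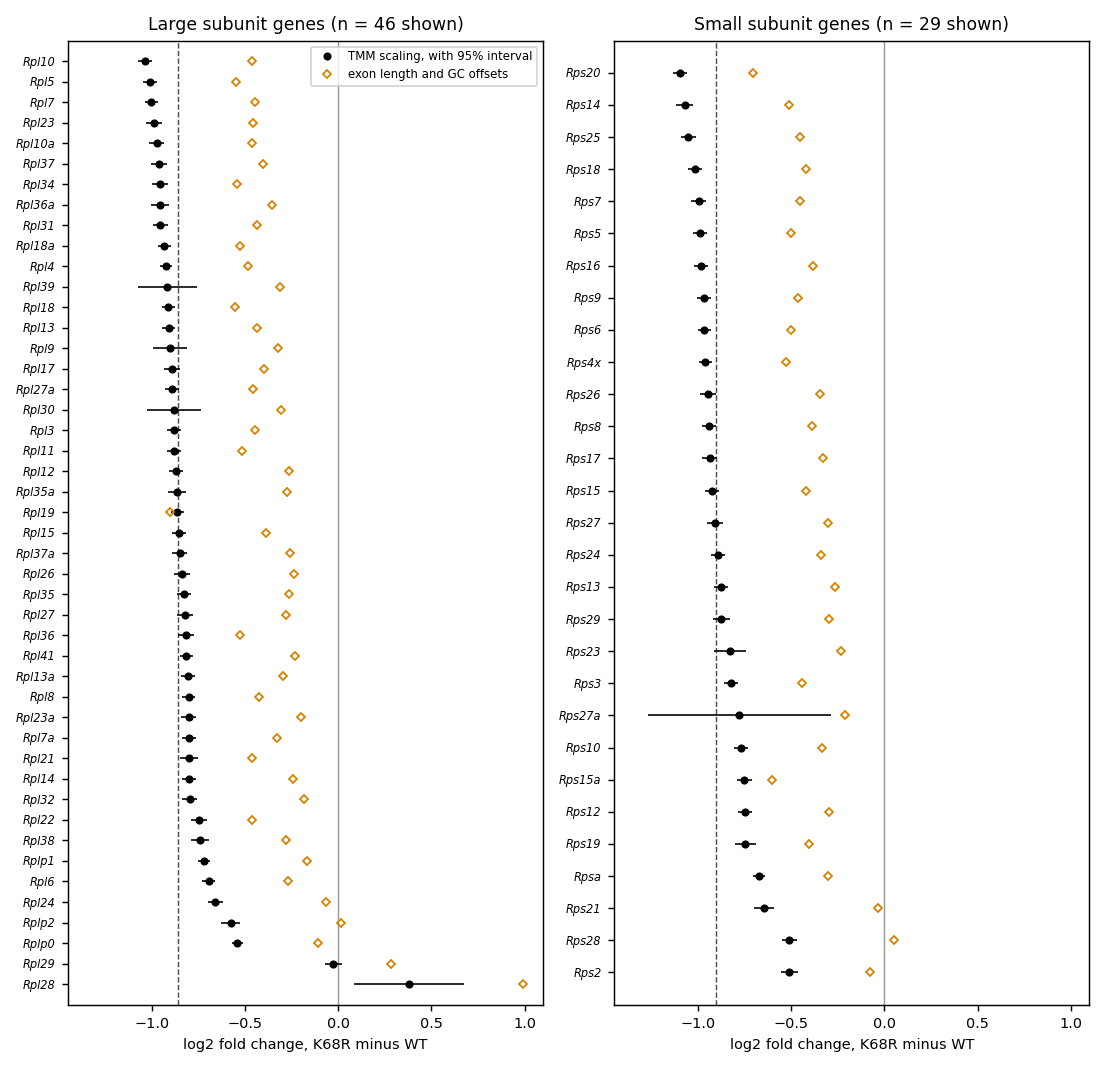
Log2 fold change (K68R minus WT) of 46 large and 29 small subunit genes: black points with 95% intervals are from the TMM-scaled fit, open diamonds are the same genes with exon length and GC offsets, and dashed lines are the medians over all genes of each subunit, -0.86 and -0.90. Black points lie left of 0 for all genes shown but Rpl28, and the diamonds lie closer to 0 for all but Rpl19, Rpl28 and Rpl29.

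Exon length and base composition moved with these values. Ribosomal protein genes are short, with a median of 830 exonic bases against 3519 over all genes tested, and short genes in general were lower in K68R. Genes under 1500 exonic bases took 12.2 to 12.5% of counts in K68R libraries and 18.4 to 18.8% in WT libraries. Of the 2888 tested genes of that length, 58.6% were lower, with a median of -0.50. Among 287 other genes with 300 to 1500 exonic bases and at least 100 CPM in WT, 260 were lower, 18 higher, and the median was -0.61. With a smooth function of exon length and GC content fitted per library and entered as offsets, 69 of the 76 genes were still lower and 3 higher (Rpl28, Rpl29 and Rps28), against 41.2% lower and 34.5% higher of all genes with a GC value. The family's median was then -0.35 (1.27-fold lower), against -0.05 over all genes. Of the 287 other short genes, 279 had a GC value. With offsets 180 of these were lower and 62 higher, with a median of -0.16. When libraries were instead scaled on genes under 1500 exonic bases alone, an alternative chosen after the data were seen, 70 were lower and 2 higher, where 15.7% of all genes were lower and 64.2% higher. That scaling raised the median of all genes by 0.51. Under it, 157 of the 287 other short genes were lower and 79 higher, with a median of -0.10. The family's median stayed below 0 on TMM scaling (-0.87), with offsets (-0.35) and with short-gene scaling (-0.36).

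The most reduced large subunit genes were Rpl10, Rpl5, Rpl7 and Rpl23. Rpl10 encodes a protein near the peptidyl transferase centre that joins late in 60S maturation (mm39 chrX:73314463-73316741). It stood at 528, 507 and 505 CPM in K68R and at 1068, 1050 and 1042 CPM in WT, and its log2 fold change was -1.04 (SE 0.0186, edgeR adjusted p = 3.09e-55). The K68R mean was 48.7% of the WT mean, and the highest K68R value lay far below the lowest WT value.

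Rpl5 encodes one of the proteins that carry the 5S rRNA (chr5:108048388-108056871). Its levels were 634, 650 and 609 CPM in K68R and 1286, 1273 and 1257 CPM in WT (log2 fold change -1.01, SE 0.0188, edgeR adjusted p = 3.46e-51). The groups did not overlap, although 47.6% of its exonic bases are shared with other annotated genes, where reads counted without strand cannot be assigned. Rpl7 was at 724, 724 and 698 CPM in K68R against 1449, 1453 and 1395 CPM in WT, a log2 fold change of -1.002 (SE 0.0183). Rpl23 encodes a protein at the subunit interface, to which the anti-association factor eIF6 binds. It was at 391.5, 379 and 364 against 773, 744 and 738 CPM (-0.99, SE 0.0212). Each of these genes was close to 50% of its WT level in K68R.

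The most reduced small subunit genes were Rps20, Rps14, Rps25 and Rps18. Rps20 encodes a protein of the 40S head that is ubiquitinated on collided ribosomes (chr4:3831334-3835600). It stood at 377, 364 and 365 CPM in K68R and at 797, 795 and 772 CPM in WT, the largest fall of the family, with a log2 fold change of -1.097 (SE 0.0194, edgeR adjusted p = 1.29e-55). Its K68R level was 46.7% of WT.

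Rps14, a platform protein whose loss in human 5q- syndrome impairs red cell formation, was at 494, 499 and 460 CPM against 1031, 1022 and 1001 CPM (-1.07, SE 0.0223). Rps25, a head protein used by several viral internal ribosome entry sites, was at 382, 360 and 364 against 772, 766 and 752 CPM (-1.05, SE 0.0199), with 30.1% of its exonic bases shared with other genes. Rps18, a head protein that bridges to the large subunit, was at 580, 577 and 563 against 1181, 1182 and 1120 CPM (-1.02, SE 0.0191). None of these overlapped between genotypes.

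At the other end, a few of the most abundant members were reduced less. Rplp0, the scaffold of the acidic stalk that recruits elongation factors (chr5:115697526-115701788), stood at 2168, 2150 and 2158 CPM in K68R and at 3158, 3172 and 3091 CPM in WT. Its log2 fold change was -0.54 (SE 0.0158, edgeR adjusted p = 2.12e-42), so that K68R cells kept 68.7% of the WT level. Rps2, a protein at the mRNA entry tunnel (chr17:24939037-24940901), was at 1791, 1804 and 1673 against 2534, 2476 and 2487 CPM (-0.51, SE 0.0215, edgeR adjusted p = 5.12e-16). Both remained clearly separated between genotypes on this scale. Under scaling on short genes neither was called, with log2 fold changes of -0.03 for Rplp0 and 0.00354 for Rps2.

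Rps28, a small protein at the mRNA exit site, was at 310, 309 and 305 CPM in K68R and 444, 442 and 431 CPM in WT (-0.51, SE 0.0201). Rplp2, one of the acidic stalk proteins, was at 493, 480 and 458 against 733, 712 and 689 CPM (-0.58, SE 0.0244). Rps21 was at 223, 212 and 204 against 344, 333 and 322 CPM (-0.65, SE 0.0262). All K68R values were below all WT values in these genes, but the calls rested on the scaling: with length and GC offsets the log2 fold change was 0.05 for Rps28, which was then called higher, 0.01 for Rplp2 and -0.04 for Rps21, which were not called. Rpsa, known as the laminin receptor precursor and placed at the mRNA exit site, was at 1541, 1564 and 1550 against 2448, 2505 and 2462 CPM (-0.67, SE 0.0162), and -0.30 with offsets.

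**Figure D2:**
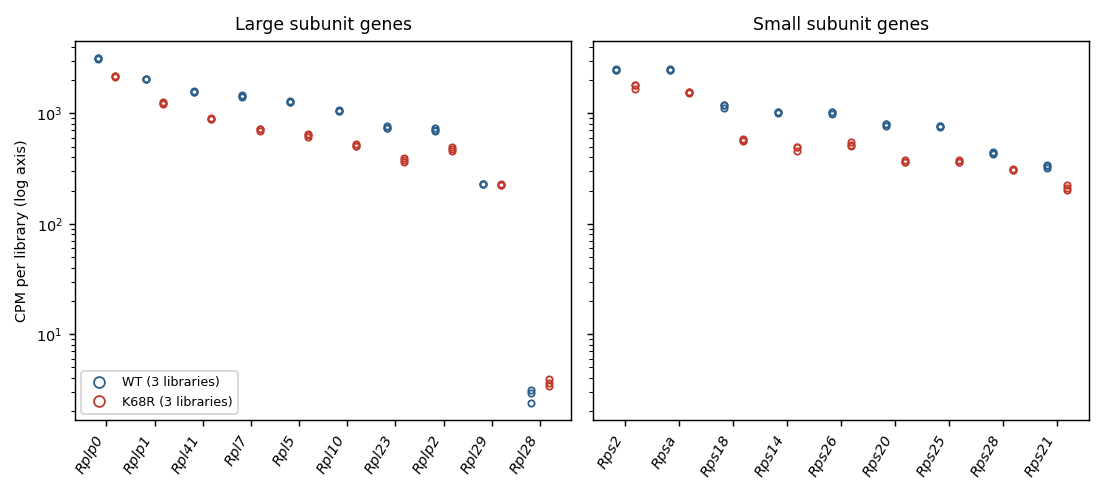
CPM in each of the 6 libraries (log axis, 1 circle per library, blue WT and red K68R) for the genes with the largest and smallest changes and the highest levels per length in each subunit. Red circles lie below blue ones for every gene shown except Rpl29, where they overlap, and Rpl28, where they lie above.

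Promoter windows are shown so that the letters can be set beside the size of the fall. The choice was made among genes with a single start in the RefSeq promoter table (build GRCm38.p6). Rpl28, whose counts are uncertain, was left out, as were all genes on the chromosome that holds Rps14. The 4 most and 4 least reduced of the remaining genes are shown. Rps14 itself (-1.07) was reduced more than any gene shown. Each runs 5′ to 3′ from 45 bases before to 15 bases after the annotated start. Capitals mark CGGAAG, the core of ETS factor sites, on either strand (CTTCCG on the strand shown). They also mark the longest run of a C followed by at least 4 further C or T. Such a run had to reach within 20 bases before the start or lie after it. The windows are chr9:44407669-44407728 on the plus strand for Rps25, chrX:74270771-74270830 plus for Rpl10, chr17:33955651-33955710 minus for Rps18, chr5:107900483-107900542 plus for Rpl5, chr7:141447606-141447665 plus for Rplp2, chr5:115559422-115559481 plus for Rplp0, chr17:33824548-33824607 minus for Rps28 and chr17:24720018-24720077 plus for Rps2.
Rps25: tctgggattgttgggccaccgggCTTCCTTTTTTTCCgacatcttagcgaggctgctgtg
Rpl10: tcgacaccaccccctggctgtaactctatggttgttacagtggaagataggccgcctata
Rps18: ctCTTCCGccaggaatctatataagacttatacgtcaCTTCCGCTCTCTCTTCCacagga
Rpl5: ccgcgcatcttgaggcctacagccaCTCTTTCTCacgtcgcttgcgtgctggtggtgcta
Rplp2: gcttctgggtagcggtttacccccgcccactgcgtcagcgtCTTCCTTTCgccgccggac
Rplp0: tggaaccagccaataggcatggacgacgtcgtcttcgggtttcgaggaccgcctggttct
Rps28: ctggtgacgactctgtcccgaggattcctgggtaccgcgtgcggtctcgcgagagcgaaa
Rps2: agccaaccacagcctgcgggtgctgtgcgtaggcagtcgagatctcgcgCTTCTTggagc
Of the genes shown, a marked pyrimidine run was found among the most reduced (Rps25, Rps18, Rpl5) and among the least reduced (Rplp2, Rps2). That of Rps2 lies wholly after the annotated start, and those of Rps25 and Rpl5 lie wholly before it. Each set also held genes without a marked run.

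Pyrimidine runs were common in the family as a whole. The table matched 56 of the 76 genes, with 66 annotated starts. CTTTC on the sense strand, from 20 bases before to 30 after the start, was present at 31.8% of them, against 6.57% of all 32851 starts and 4.58% of 153 starts of mitochondrial ribosomal protein, proteasome and complex I genes. A C followed by at least 7 further C or T, which can overlap CTTTC, was found from 10 bases before to 20 after at 34.8%, against 8.68 and 5.88%. Over the whole 300 bases, CGGAAG on either strand was at 62.1% of the family's starts, 16.9% of all starts and 49.0% of those of the other families. AAGATGG on either strand, the YY1 core, was at 16.7, 6.34 and 17.6%, and TATAAA on either strand at 9.09, 13.6 and 9.15%.

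Genes with and without CTTTC or CGGAAG had similar medians. Median log2 fold changes were -0.86 with CTTTC (21 genes) and -0.88 without (35 genes), and -0.87 with CGGAAG (39 genes) and -0.87 without (17 genes). The 6 genes with TATAAA had a median of -0.64 against -0.87 for the other 50. These medians are descriptions, and a match of letters does not show a site in use.

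Large and small subunit genes fell by nearly the same amount. The median log2 fold change was -0.86 for the large subunit (44 of 46 lower) and -0.90 for the small subunit (30 of 30 lower), and with offsets -0.34 and -0.36. Large subunit genes took 2.38% ± 0.0365 of counts in K68R and 4.35% ± 0.0580 in WT, and small subunit genes 1.63% ± 0.0321 and 3.02% ± 0.0406 (SD, n = 3 each). The ratio of summed large to summed small subunit counts, which does not depend on how libraries are scaled, was 1.46, 1.45 and 1.47 in K68R and 1.44, 1.44 and 1.44 in WT. The means were 1.462 ± 0.0108 and 1.440 ± 0.00343 (SD, n = 3), and the lowest K68R ratio, 1.450, was above the highest WT ratio, 1.444. K68R cells therefore had a ratio 1.02 times that of WT cells, a difference small beside the change of the family itself. Without the most abundant gene of each subunit, Rplp0 and Rps2, the ratios were 1.489 ± 0.00674 and 1.457 ± 0.00198, again without overlap. These ratios were not corrected for exon length or GC content. The fitted function of length and GC content alone had medians of -0.52 over large and -0.55 over small subunit genes. Its part in the difference of the ratios was not tested.

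**Figure D3:**
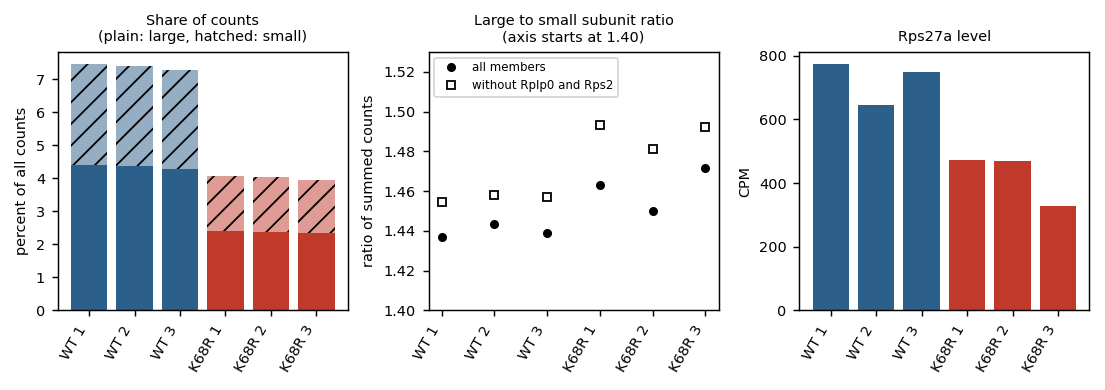
Left, percent of all counts in large (plain) and small (hatched) subunit genes for each library; middle, ratio of summed large to small subunit counts per library (axis starts above 0), with all members (filled) and without Rplp0 and Rps2 (open); right, Rps27a CPM per library. Shares are 7.26 to 7.45% in WT and 3.93 to 4.07% in K68R, the mean ratios are 1.440 in WT and 1.462 in K68R, and Rps27a varies within each genotype.

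Within the 60S subunit, groups of proteins with a shared place in the ribosome all fell. The stalk and its base (Rplp0, Rplp1, Rplp2 and Rpl12) had 4 of 4 genes lower, with log2 fold changes from -0.87 for Rpl12 to -0.54 for Rplp0 and a median of -0.65. With offsets, 3 of the 4 were lower, with a median of -0.14. Both carriers of the 5S rRNA were lower, Rpl5 as above and Rpl11 at 450, 451 and 449 CPM against 852, 816 and 818 CPM (-0.88, SE 0.0190).

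The 9 genes of the peptide tunnel and its exit were all lower, within a narrow range from -0.96 (Rpl31) to -0.75 (Rpl22). Rpl4, whose loop lines the tunnel, was at 1316, 1313 and 1309 CPM in K68R and 2493, 2519 and 2461 CPM in WT. Rpl39, which takes the place of a tunnel-wall loop near the exit, was at 168, 170 and 151 against 317, 315 and 292 CPM (-0.92, SE 0.0602). Rpl23a and Rpl35, which dock the signal recognition particle at the exit, had log2 fold changes of -0.80 and -0.83. With offsets all 9 stayed lower, with a median of -0.40.

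Within the 40S subunit, the genes of the mRNA exit and platform (Rpsa, Rps26, Rps28) were lower by different amounts, with a median of -0.67. Rps26, which contacts mRNA upstream of the start codon, was at 551, 508 and 520 CPM in K68R and 1024, 996 and 1023 CPM in WT (-0.95, SE 0.0210, edgeR adjusted p = 1.08e-33), and Rps28 was the least reduced of the 3. Of the genes at the mRNA entry and decoding site, Rps3 was at 912, 954 and 895 against 1649, 1625 and 1605 CPM (-0.82). Rps15, whose tail reaches the decoding site, was at 537, 537 and 538 against 1026, 1034 and 1002 CPM (-0.93). Rps23, which holds the hydroxylated proline of the decoding centre, had a log2 fold change of -0.83 (SE 0.0366). With Rps2 this group had 4 of 4 genes lower and a median of -0.82, or -0.33 with offsets.

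Rps6, the substrate of the S6 kinases that act under mTORC1, was at 513, 516 and 510 CPM in K68R and 1012, 1008 and 986 CPM in WT (-0.97, SE 0.0181). The median of its subunit was -0.90. The 4 X-linked members, Rps4x, Rpl10, Rpl36a and Rpl39, were all lower, from -1.04 to -0.92. Members of the family lay on 19 chromosomes, 14 of them on chromosome 7.

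Relative to the family's own total, the genes were not all equal. With libraries scaled to the sum of the family, which raised the median of all genes by 0.84, 33 of the 76 were lower in K68R, 18 higher and 25 not called, where 6.49% of all genes were lower and 79.7% higher. The lower ones ran from -0.26 (Rps20) to -0.06 and included Rps6, Rps4x, Rpl10 and Rpl5. Apart from Rpl28 and Rpl29, the higher ones ran from 0.07 to 0.33 and included 3 of the 4 stalk genes (Rplp0 0.29, Rplp2 0.26, Rplp1 0.12), Rpsa, Rps2 and Rps28. Rplp0 thus made up 5.30% ± 0.0870 of the family's counts in K68R and 4.32% ± 0.0253 in WT, and Rps2 4.31% ± 0.110 and 3.44% ± 0.0449 (SD, n = 3). Across 74 members, without Rpl28 and Rpl29, the log2 fold change rose with GC content (Pearson r 0.34) and had little relation to exon length (-0.07) or WT level (-0.04). Genes share their libraries and are not replicates, so these are descriptions.

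Per kilobase of exon, the highest levels in the large subunit were those of Rplp1 (2659 CPM per kilobase in K68R, 4377 in WT), Rpl41 (1986 and 3493) and Rplp0 (1587 and 2309). Rplp1, another acidic stalk protein, was at 1271, 1228 and 1235 CPM in K68R and 2048, 2053 and 2044 CPM in WT (-0.72, SE 0.0167, edgeR adjusted p = 1.91e-48). Rpl41, the shortest protein of the ribosome with 75 coding bases, was at 905, 885 and 885 against 1592, 1550 and 1564 CPM (-0.81, SE 0.0172). In the small subunit Rps2 (1758 and 2501 CPM per kilobase), Rps26 (1175 and 2264) and Rps18 (1045 and 2115) stood highest. Exonic length is the union of annotated exons and is much longer than the coding part in some members, 5136 bases for Rps15a with 390 coding bases, so its level per kilobase (69.1 and 116) is understated. Rps20 likewise had 3641 exonic and 357 coding bases.

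Rpl28 and Rpl29 stood apart in level or change. Rpl28 (chr7:4795964-4797546) held only 87, 113 and 122 counts in K68R and 128, 91 and 80 in WT, or 3.37, 3.62 and 3.95 against 3.10, 2.91 and 2.39 CPM, where the median member stood at 812 CPM in WT. Its log2 fold change was 0.38 (SE 0.148, edgeR adjusted p = 0.0164), and the K68R values lay above all WT values by a narrow margin. Of its exonic bases, 89.3% overlap Gm57780 on the opposite strand, where reads counted without strand cannot be assigned. Multi-mapped reads were not counted either. What kept its counts low was not tested, and its log2 fold change is uncertain. Rpl28 was called in 13 of 18 alternatives. Its call was lost without K68R replicate 3 (edgeR adjusted p = 0.0817) and without WT replicate 3 (0.124). It was also lost with upper quartile scaling (0.0927), with no filter (0.0534) and with the 1.5-fold bound. Over the 18 alternatives the adjusted p ran from 2.75e-11 to 1. The row Rpl28-ps1 held 27.6 to 27.9 CPM in K68R and 44.5 to 48.5 CPM in WT (-0.75), more reads than Rpl28 itself.

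Rpl29, a basic protein also described as a heparin-binding protein at the cell surface (chr9:106306631-106308768), was the one member whose groups overlapped. It stood at 224, 222 and 229 CPM in K68R and 228, 229 and 231 CPM in WT, a log2 fold change of -0.03 (SE 0.0220, 95% interval -0.07 to 0.02, edgeR adjusted p = 0.260). The interval does not reach the estimate of any other member, and none of its exonic bases are shared with another gene. With offsets, where the family's median was -0.35, Rpl29 was at 0.28.

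Rps27a, which encodes ubiquitin fused to a 40S protein and so supplies both, was the least reproducible abundant member (chr11:29495842-29498040). It stood at 472, 468 and 326 CPM in K68R and at 773, 645 and 747 CPM in WT. K68R replicate 3 was low among K68R libraries and WT replicate 2 low among WT libraries, and the groups did not overlap. The coefficient of variation was 19.6% in K68R and 9.35% in WT, ranks 1 and 4 among 1658 genes at 100 CPM or more in both genotypes, where the medians were 1.69 and 1.54%. Over the other members except Rpl28, the highest values were 6.44% (Rpl39, K68R) and 5.55% (Rpl30, WT).

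The log2 fold change of Rps27a was -0.78 (SE 0.181, edgeR adjusted p = 0.0143), with a 95% interval from -1.27 to -0.29, the widest of the small subunit. It was called in 12 of 18 alternatives. The call was lost without WT replicate 1 (edgeR adjusted p = 0.0504), with a replicate block (0.0632) and with the 1.5-fold bound (0.159). It was also lost with offsets (-0.21, 0.313), short-gene scaling (-0.27, 0.231) and family scaling (0.05, 0.78). The adjusted p ran from 9.49e-11 to 0.78 over the 18 alternatives. Rpl28 and Rpl29, the only members not called lower, were set aside with Rps27a on these same values. That the other 73 genes were all lower on TMM scaling follows from this choice. Their median was -0.88. With offsets 69 of these 73 were lower and 1 higher.

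**Figure D4:**
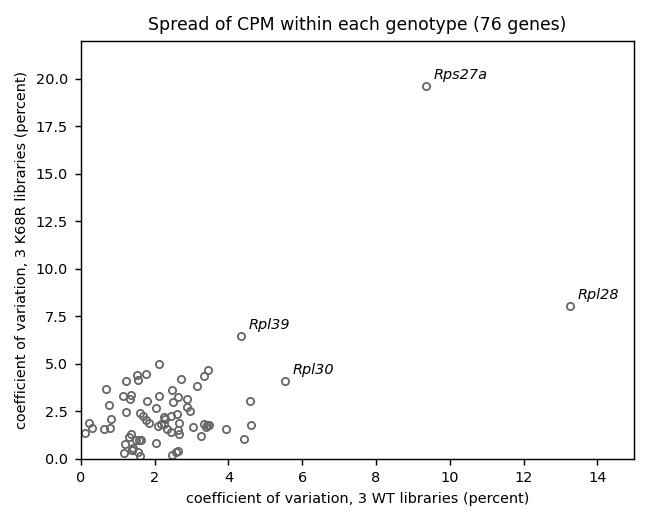
Coefficient of variation of CPM over the 3 WT libraries (x) and the 3 K68R libraries (y), in percent, for each of the 76 genes. Rps27a lies at 9.35 and 19.6%, Rpl28, with few counts, at 13.3 and 8.02%, and all others at or below 6.44% on both axes.

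Ribosomal proteins whose names fall outside the rule were lower too. All 4 of the listed genes, Rps3a1, Fau and Rack1 among them, were lower, with a median of -0.80. Rps3a1 was at 805, 806 and 771 CPM in K68R and 1548, 1522 and 1499 CPM in WT (-0.94), and Rack1, a scaffold on the 40S head, at 1126, 1111 and 1089 against 1945, 1922 and 1954 CPM (-0.81). Fau, which encodes a 40S protein fused to a ubiquitin-like domain, had a log2 fold change of -0.79. With these 4 added, the family's share of counts was 4.26% in K68R and 7.83% in WT.

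Of 9 paralogs of ribosomal proteins, 7 were tested and all 7 were lower, with a median of -0.69. Rpl39l, a paralog of Rpl39 known mainly from the testis, was at 2.63, 1.73 and 2.40 CPM in K68R and 16.9, 14.3 and 16.1 CPM in WT (-2.82, SE 0.108), the largest change among them. Rps27l, a p53 target, was at -0.69 and Rpl36al at -0.69. Rows named as ribosomal protein pseudogenes, 319 in all with 212 holding counts, took counts equal to 2.50% of those of the members in K68R and 2.56% in WT. Reads that map to more than one place were not counted, so members with near-identical copies can be understated in both genotypes.

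Other messenger RNAs known for TOP starts were mostly lower too. Of 16, 15 were lower and 1 higher, with a median of -0.76 (-0.37 with offsets). Npm1, a nucleolar chaperone of ribosome assembly, was at 909, 906 and 896 CPM in K68R and 1839, 1782 and 1835 CPM in WT (-1.01), the splicing regulator Hnrnpa1 at -0.9996 and Tpt1 at -0.91. All 9 host genes of small nucleolar RNAs with TOP starts were lower, with a median of -0.87, among them Gas5 (116, 118 and 117 against 222, 219 and 203 CPM, -0.88) and Eef1b2 (-0.87).

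Genes of translation factors fell by smaller median amounts, and a few rose. Of 9 elongation factor genes 7 were lower and 2 higher (median -0.47), and with offsets 7 were lower and 0 higher (-0.27). Eef1a1, the factor that brings aminoacyl-tRNA to the ribosome, was at 7132, 7161 and 7061 CPM in K68R and 11414, 11512 and 11282 CPM in WT (-0.68), Eef1d was at -0.80 and Eif5a, which relieves stalling at prolines, at -0.59. Of 35 initiation factor genes 30 were lower, 4 higher and 1 not called (median -0.43), and with offsets 24 were lower and 8 higher (-0.19). With short-gene scaling the medians were 0.04 for elongation and 0.09 for initiation factors, against 0.51 over all genes. Eif4a1, the helicase of the cap-binding complex, was at 717, 752 and 724 against 1446, 1460 and 1418 CPM (-0.98). The scaffolds Eif4g1 and Eif4g3, with which it works, were higher: Eif4g1 was at 1115, 1112 and 1121 against 217, 221 and 225 CPM (2.34, and 1.23 with offsets) and Eif4g3 had a log2 fold change of 3.52 (2.44 with offsets).

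**Figure D5:**
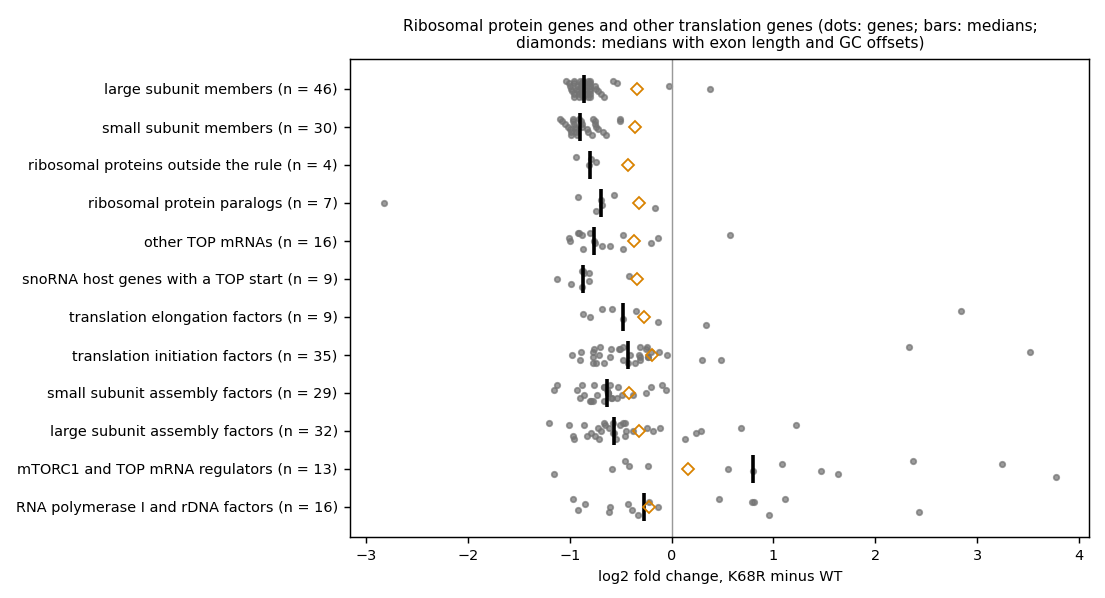
Log2 fold changes (K68R minus WT) of single genes (dots) in the family and in lists of other translation genes, with the median of each list (bar) and its median with exon length and GC offsets (diamond). Medians run from -0.90 for the small subunit to -0.27 for RNA polymerase I factors, while mTORC1 and TOP regulators have a median of 0.80, or 0.16 with offsets.

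Genes that regulate TOP messenger RNAs were not lower as a group. Of 13 genes of mTORC1 and TOP regulation, 8 were higher and 5 lower. Larp1 was at 293, 282 and 298 CPM in K68R and 21.0, 23.2 and 19.8 CPM in WT, a log2 fold change of 3.77 (SE 0.0339, edgeR adjusted p = 2.03e-61), and 2.49 with offsets. Rptor, the subunit that recruits mTORC1 substrates, was at 3.24 and Mtor, the kinase, at 2.37, and with offsets these were 1.00 and 0.76. These are long genes, with a median of 6461 exonic bases, and the fitted function of length and GC content alone had a median of 0.77 over the 13. Eif4ebp1, the translation repressor that mTORC1 inactivates, was at -0.46, and at 0.08 with offsets. Rps6kb1, which encodes the S6 kinase, was at -0.42 and at -0.38 with offsets. Transcript levels do not measure the activity of these kinases.

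Genes for making and assembling ribosomes were mostly lower. All 29 small subunit assembly factors were lower, with a median of -0.64 (-0.42 with offsets), among them the box C/D snoRNP proteins Nop58 (169, 172 and 169 against 330, 310 and 328 CPM, -0.93) and Fbl (-0.88), and the methyltransferase Emg1 (-1.12). Of 32 large subunit assembly factors 27 were lower and 5 higher (median -0.57), and with offsets 28 were lower and 1 higher (-0.32). Ebna1bp2 was at -0.96, whereas Mdn1, the giant ATPase that strips factors from 60S precursors, was at 174, 178 and 176 against 75.4, 75.7 and 76.2 CPM (1.22, and 0.36 with offsets). Of 11 chaperones of ribosomal proteins 10 were lower and 1 higher (median -0.45), with Bccip, which escorts Rpl23, at -0.96, and Nap1l1 at -0.76.

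RNA polymerase I genes were mixed, with 9 lower, 6 higher and 1 not called of 16 (median -0.27). Its largest subunit, Polr1a, was at 128, 128 and 128 CPM in K68R and 57.9, 57.8 and 62.3 CPM in WT (1.11, and 0.62 with offsets), Polr1c at -0.85, and the rDNA factor Ubtf at 0.81, which became -0.85 with offsets. Ribosomal RNA itself was not measured, since libraries were made from poly(A) RNA.

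Free 5S particles, when ribosome assembly is disturbed, are known to bind MDM2 and so stabilise p53. Of 6 genes listed for this, 4 were lower and 2 higher. The p53 targets Cdkn1a (939, 938 and 925 against 640, 631 and 628 CPM, 0.56) and Mdm2 (583, 597 and 594 against 462, 450 and 450 CPM, 0.38) were the higher ones, and with offsets they were at 0.67 and 0.28. Rps27l, named above as a p53 target, was lower. Whether p53 activity differed was not tested. Rpf2, which loads the 5S particle, was at -0.86. Of 10 ribosome quality control genes 5 were lower, 4 higher and 1 not called. Zfp598, the ligase that ubiquitinates Rps20 and Rps10 on collided ribosomes, was at 54.0, 56.9 and 58.9 against 8.17, 8.09 and 7.88 CPM (2.81, and 1.47 with offsets), G3bp1 at -0.69 and the recycling factor Abce1 at -0.66.

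Other multi-subunit complexes built from short genes were lower too. All 78 mitochondrial ribosomal protein genes were lower, with a median of -0.67 (-0.30 with offsets). Of 37 proteasome subunit genes 34 were lower and 2 higher (median -0.55, and -0.10 with offsets), and of 48 nuclear complex I genes 45 were lower and 1 higher (median -0.58, and -0.14 with offsets). The cytosolic family's medians of -0.87 and -0.35 were beyond those of these 3 families on both scales, and its distance from the mitochondrial ribosomal proteins with offsets was small. No test of these differences was made.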

How the data were processed

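Poly(A) RNA of 3 K68R and 3 WT libraries was sequenced, made with a stranded kit from RNA of integrity number above 4, per the labels' protocols. Tools named in the submitters' processing notes are HISAT2 2.2.1 and featureCounts 2.0.6, beside bcl2fastq and SAMtools, and the genome build is mm39. The deposited table holds unnormalized counts for each gene, made by the authors in one column per sample. Exons of RefSeq genes were counted as read pairs, per the file headers, with strand ignored and multi-mapped reads left out. Trimming and filters are not given in the sources used here.

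The analysis used edgeR 4.0.16 under R 4.3.3 with filterByExpr, TMM and the robust quasi-likelihood test of K68R against WT over all 16730 genes kept, with Benjamini-Hochberg adjustment and calls at an adjusted p under 0.05. CPM use TMM library sizes. Depth bounds low levels: 3 counts equal 0.0737 to 0.115 CPM, for counting error only. No file column was left unused. Replicates were compared pairwise, and their chi-square per gene (1.85 to 2.29) exceeded sampling noise, so none was merged. The fit was tested on simulated data. The length and GC function was fitted with mgcv 1.9.3 on 15651 genes whose GC content was found by symbol in GENCODE M21 (93.6% of those tested, and all 76 members). Other alternatives were DESeq2 1.42.0, limma-voom (limma 3.58.1), other scalings and filters, a 1.5-fold bound, a replicate block and leaving out each library.

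All members could be named, but 1 small subunit gene entered the counts and fits and is not reported here by itself. In full were given, per subunit, the 4 lowest and 4 highest log2 fold changes and the 3 highest levels per kilobase; from each list, up to 3 called genes with the smallest p. Eif4ebp1 and Rps6kb1 were added after their values were seen, as were values of partner and pseudogene rows. The members, the lists and the tests were chosen with earlier results of these data known. Promoters came from RefSeq, GRCm38.p6, and member coordinates from the deposited file, mm39.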

Additional observations from a re-analysis of the deposited data

How the results depend on the processing

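Of 75 genes under 18 alternatives, 1283 of 1350 results kept their direction and side of the threshold, 37 reversed, 28 lost and 2 gained a call. The count of members called lower ran from 69 to 75, except with libraries scaled to the family total (33), which sets the family's change near 0 by construction. Leaving out each library gave 73 to 74 called lower, 0 to 1 called higher, medians of -0.89 to -0.85 (large) and -0.94 to -0.89 (small), 139 to 143 genes of the translation lists called lower (142 with all libraries), a relative large to small ratio of 1.0117 to 1.0191, and a relative share of 0.540 to 0.549.

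Members called higher numbered 0 with upper quartile scaling, with no filter and with the 1.5-fold bound, 3 with length and GC offsets, 2 with scaling within the members' length range, 2 with short-gene scaling and 18 with family scaling. The call of Rpl28 was also lost without K68R replicate 3 and without WT replicate 3. The large subunit median was -0.97 with upper quartile scaling, -0.90 with no filter, -0.34 with offsets, -0.70 within the members' length range, -0.35 with short-gene scaling and -0.0248 with family scaling. The small subunit median was -1.02, -0.36, -0.74, -0.39 and -0.0656 under upper quartile, offsets, length range, short-gene and family scaling. These settings moved the median of all genes by -0.11 (upper quartile), 0.16 (no filter), 0.16 (length range), 0.51 (short genes) and 0.84 (family total). Genes of the translation lists called lower numbered 68 with the 1.5-fold bound, 81 with short-gene scaling and 20 with family scaling. Of all genes tested, 40.5% were lower in the main fit, 15.7% with short-gene scaling and 6.49% with family scaling. These list counts are read only against the 142 of the main fit. The lists overlap, with Rack1, Npm1 and Rpf2 among the recurring genes, and a recurring gene was not counted again. Without members that share over 25% of their exons, Rps27a and Rpl29, chosen after the data were seen, the relative subunit ratio was 1.03.

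Reversed with offsets were Rpl29 (0.28), Rplp2 (0.0133) and Rps28 (0.0533), within the length range Rpl29 (0.14), and with short-gene scaling Rpl29 (0.49), Rps2 (0.00354) and Rps28 (0.00274). With family scaling the log2 fold changes that turned positive were Rpl35 0.00725, Rps23 0.00921, Rpl27 0.0123, Rps3 0.0133, Rpl36 0.016, Rpl41 0.0202, Rpl13a 0.0301, Rpl8 0.0316, Rpl23a 0.0322, Rpl7a 0.0339, Rpl21 0.0355, Rpl14 0.036, Rpl32 0.0379, Rps27a 0.0549, Rps10 0.0667, Rps15a 0.0832, Rps12 0.0854, Rpl22 0.0866, Rps19 0.0902, Rpl38 0.0954, Rplp1 0.12, Rpl6 0.14, Rpsa 0.16, Rpl24 0.18, Rps21 0.19, Rplp2 0.26, Rplp0 0.29, Rps28 0.32, Rps2 0.33 and Rpl29 0.81. The cause of the other changes was not tested.

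Replicate numbers were shared by the genotypes, but deviations of same-numbered libraries were hardly correlated (-0.00947, 0.0135 and 0.0130). A weak effect shared by such libraries could be missed by this check, so it does not settle whether they were paired. With a replicate block 73 members were lower and 1 higher, the medians were -0.86 and -0.90, 142 list genes were lower, and Rps27a alone lost its call (edgeR adjusted p = 0.0632). Counting without strand limits Rpl28 and, less so, 6 other members that share over 25% of their exons. Poly(A) selection, RNA quality above a low minimum and the number of embryos were not varied, so their part in the results was not tested.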

Other observations

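Among the 1658 genes at 100 CPM or more, the widest spreads over the K68R libraries after that of Rps27a were those of Ube2l3, a ubiquitin-conjugating enzyme, at 158, 194 and 160 CPM (11.8%), and of Tuba1b, an alpha tubulin, at 438, 493 and 422 CPM (8.25%). These values were picked after they were seen. The library that was low for Rps27a in K68R, replicate 3, was not the one that stood apart for Ube2l3 and Tuba1b, which was replicate 2.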
